A study of Mus musculus with 10 samples.

Results

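Expression of 9 genes of adult neurogenesis and immature neurons, Mki67, Eomes, Neurog2, Neurod1, Igfbpl1, Dcx, Sox4, Sox11 and Calb2, was compared in the hippocampus of Dp3Yah mice and control mice. The genes were chosen by name. Each was read from the probe sets annotated to that gene alone, the one with the highest mean where there were several, and all 9 had 1 such probe set. They were 9 of the 19939 genes measured. Dp3Yah mice carried a duplication of the region of mouse chromosome 16 (Mmu16) from Hspa13 to App, so that genes inside it were present in 3 copies in Dp3Yah mice and 2 copies in control mice, their littermates without the duplication. Both groups were males aged 16 weeks, on a background given as C57BL/6N in the sample labels and as C57BL/6J in the study's methods. Total RNA of the right and left hippocampus of 1 mouse went to each Affymetrix Mouse Gene 1.0 ST array, with 5 mice in each group. None of the 9 genes lies on chromosome 16, so the duplication did not change their own copy number.

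In the adult mouse dentate gyrus, stem cells in the subgranular zone divide and pass through an intermediate progenitor and a neuroblast stage before they become immature, then mature, granule neurons. Mki67 marks cells in cycle, Eomes (Tbr2) and Neurog2 mark intermediate progenitors, Neurod1 acts as cells commit to the granule neuron fate, and Dcx, Sox4, Sox11 and Calb2 (calretinin) are on in the young postmitotic neuron. Several of them are not confined to these cells. In mice, mature granule neurons express Neurod1, while interneurons and the mossy cells of the hilus express Calb2. Neurons born in the adult are a small minority of hippocampal cells. The arrays measured whole tissue, in which fewer cells of a type and less RNA per cell cannot be told apart.

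Values are log2 intensities, so that a difference of 1 is a doubling. Each gene was tested in a linear model across all genes (limma), with p-values adjusted over the 19939 genes by the Benjamini-Hochberg method, and 3 genes passed an adjusted p of 0.05 (0.0150% of those tested). They were Hspa13, Ncam2 and Mrpl39, which lie within the duplicated region and were higher in Dp3Yah mice by 0.60, 0.58 and 0.48 on the log2 scale. Array medians lay between 5.64 and 5.71. The mean of 12 choroid plexus markers split the arrays of both groups, with 5.99 to 7.67 in Dp3Yah mice and 5.92 to 7.74 in controls. The mean of 15 dentate granule cell markers was 7.74 to 7.98 in Dp3Yah mice and 7.85 to 8.04 in controls. That list had 11 of its 15 genes lower in Dp3Yah mice, a median change of -0.135 and no gene past the adjusted threshold. Over all genes, 46.8% were higher in Dp3Yah mice. Without adjustment 4 of the 15, all lower, had a limma p under 0.05, against 5.08% of all genes. Of 16 microglia markers, 14 were higher in Dp3Yah mice, with a median change of 0.08 and list means of 7.69 to 7.85 in Dp3Yah mice and 7.59 to 7.71 in controls. Without adjustment 4 of the 16, all higher, had a limma p under 0.05. Of 10 neocortex and subiculum markers, 9 were lower, with a median of -0.127 and list means of 7.37 to 8.07 in Dp3Yah mice and 7.76 to 8.11 in controls. None of these 10 had an unadjusted limma p under 0.05. No gene of these lists passed the adjusted threshold either. With the choroid plexus or the dentate mean as a covariate, none of the 9 neurogenesis genes passed it. With the choroid plexus mean the change went from -0.031 to -0.084 for Calb2 and from -0.030 to -0.015 for Dcx. For Neurod1 it went from -0.008 to -0.021, and for Igfbpl1 from -0.004 to -0.015. Changes that moved with the dentate mean are given beside the gene or at the end. The part of the microglia and neocortex differences was not tested.

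None of the 9 neurogenesis genes differed between Dp3Yah mice and control mice at an adjusted p of 0.05 (limma), and their adjusted p-values were 0.922 or higher. Without adjustment, Sox4 alone had a p under 0.05, against 5.08% of all genes. By a fold-change rank test rewritten from the principle of the study's own, 0 of the 9 were past its threshold, against 4.59% of all genes. That test puts a near-fixed tail of genes past its threshold, so the share is not a measure of how many changed. The 2 groups overlapped for each of the 9 genes, whereas they did not overlap for 0.913% of all genes. The change was negative for 7 genes and positive for 2, with a median of -0.008 that compares with -0.0047 over all genes. For 8 of the 9 genes the 95% interval of the change lay within 0.32 on the log2 scale in either direction, and Calb2 was the exception. The limma p-values set the difference in group means against the variation between these 5 and 5 mice, moderated over all genes.

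**Figure D1:**
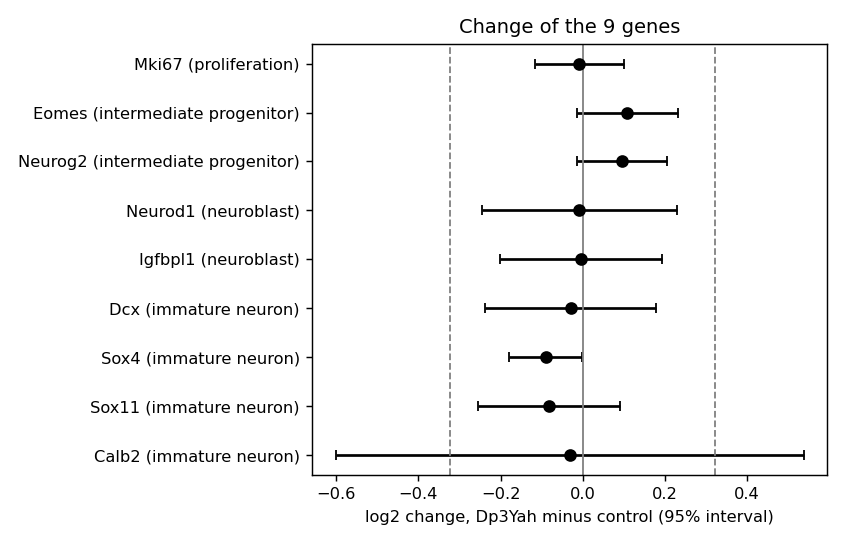
Change of each gene on the log2 scale, Dp3Yah minus control, as points with the 95% interval from limma (n = 5 mice per group), ordered by stage. The dashed lines mark 0.32 in either direction, and only the Calb2 interval crosses them.

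Mki67, the gene of the Ki-67 antigen found in cycling cells, is on chromosome 7 (135689784 to 135716450, GRCm38.p6, as are all positions here). Its log2 values were 4.53, 4.40, 4.53, 4.47 and 4.59 in Dp3Yah mice and 4.38, 4.52, 4.52, 4.59 and 4.57 in control mice. The groups covered almost the same range. The change was -0.01 (95% interval -0.12 to 0.10, limma adjusted p = 0.993). Among 27 measured cell cycle genes, 14 were higher and 13 lower in Dp3Yah mice, and none passed the adjusted threshold. In 20 of the 27, Mki67 among them, the mean was below the median of all genes, 6.38. The same held for 6 of the 9 neurogenesis genes. No call of detection above background was used here, so a difference in genes near the floor of the array may not have been measurable. Top2a, the topoisomerase of dividing cells, averaged 4.62 ± 0.067 in Dp3Yah mice and 4.62 ± 0.11 in controls (SD, n = 5 each). The smallest unadjusted p of this list belonged to Ccnd2, the D-type cyclin of neural progenitors, which averaged 9.31 ± 0.083 in Dp3Yah mice and 9.48 ± 0.13 in controls, a difference of -0.18 with an adjusted p of 0.922 in limma.

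The 2 genes of intermediate progenitors had the most positive changes of the 9. Eomes, a T-box transcription factor gene on chromosome 9 (118478186 to 118486132), had 5.05, 4.88, 4.87, 4.87 and 5.06 in Dp3Yah mice, against 4.87, 4.72, 4.78, 4.93 and 4.89 in controls. All 5 Dp3Yah mice were above the control mean and 2 were above every control mouse. Its change of 0.11 (SE 0.057, 95% interval -0.01 to 0.23) had an exact permutation p of 0.135 and an adjusted p of 0.922 in limma. With the dentate mean as a covariate it was 0.176. Neurog2, a proneural basic helix-loop-helix factor gene on chromosome 3 (127632733 to 127635636), had 5.77, 5.58, 5.68, 5.58 and 5.54 in Dp3Yah mice, against 5.53, 5.48, 5.63, 5.50 and 5.53 in controls. Again all 5 Dp3Yah mice exceeded the control mean and 2 exceeded every control. The Neurog2 change was 0.10 (SE 0.050, 95% interval -0.01 to 0.21), with an exact permutation p of 0.0873 and an adjusted p of 0.922 in limma. Permutation of 5 against 5 mice can give a two-sided p no lower than 0.00794.

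One stage earlier, 19 genes of neural stem cells were measured, of which 12 were higher and 7 lower in Dp3Yah mice, with a median change of 0.033 and no gene called at either threshold. Id4, which encodes an inhibitor of basic helix-loop-helix factors, averaged 8.81 ± 0.13 in Dp3Yah mice and 8.66 ± 0.10 in controls (SD, n = 5 each). For Sox2, a transcription factor gene of stem cells, the means were 8.53 ± 0.27 in Dp3Yah mice and 8.43 ± 0.16 in controls, and the groups overlapped for both genes.

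Neurod1, a basic helix-loop-helix factor gene on chromosome 2 (79452637 to 79456636), had 6.97, 7.31, 6.79, 6.89 and 6.83 in Dp3Yah mice, against 7.30, 6.94, 7.00, 6.73 and 6.86 in control mice. One mouse of each group stood near 7.3 and the others lay together. The change was -0.01 (95% interval -0.25 to 0.23). Igfbpl1, on chromosome 4 (45809507 to 45826827), encodes a secreted protein related to the insulin-like growth factor binding proteins. It had 4.79, 5.07, 4.77, 4.87 and 5.05 in Dp3Yah mice and 5.11, 4.74, 4.76, 5.14 and 4.84 in controls. Low and high mice occurred in both groups, and the means were 4.91 ± 0.14 in Dp3Yah mice and 4.91 ± 0.19 in controls (SD, n = 5 each). Adjusted p-values of Neurod1 and Igfbpl1 were 0.996 and 0.997 in limma.

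Dcx encodes doublecortin, the microtubule-associated protein used most widely to count young neurons, and lies on the X chromosome (143855842 to 143933396). Its values were 5.68, 5.69, 6.01, 5.91 and 6.08 in Dp3Yah mice, against 5.67, 6.08, 5.94, 6.06 and 5.77 in control mice. Both groups ran over the same range, from about 5.7 to 6.08. The change of -0.03 had a 95% interval of -0.24 to 0.18, which corresponds to folds of 0.847 to 1.13, with an adjusted p of 0.985 in limma. With the dentate mean as a covariate the change was -0.166, and the limma adjusted p was 0.999.

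Sox4 and Sox11 encode related SoxC transcription factors, which act together in young neurons. Sox4, on chromosome 13 (28948919 to 28953699), had 6.22, 6.11, 6.22, 6.15 and 6.15 in Dp3Yah mice, against 6.21, 6.29, 6.31, 6.19 and 6.30 in controls. All 5 Dp3Yah mice were below the control mean and 3 were below every control. The change was -0.09 (SE 0.041), a fold of 0.939 with an interval of 0.883 to 0.999, and the exact permutation p was 0.0476. After adjustment over all genes the limma p was 0.922. The unadjusted limma p was under 0.05 in 8 of 23 alternative settings. Among the 23, the median-level filter, which dropped Sox4, and the rank test gave no such p. The within-group SD of Sox4, 0.051, was the smallest of the 9 genes, and 10.3% of all genes had a smaller one. Sox11, on chromosome 12 (27334268 to 27342718), had 6.84, 6.73, 7.03, 7.08 and 6.66 in Dp3Yah mice, against 6.94, 6.85, 7.09, 6.89 and 6.99 in controls. Here 3 Dp3Yah mice were below every control while the other 2 were near the top of the control range. The Sox11 change was -0.08 (95% interval -0.25 to 0.09, adjusted p = 0.948 in limma), and without Dp3Yah replicate 5 it was -0.0305.

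**Figure D2:**
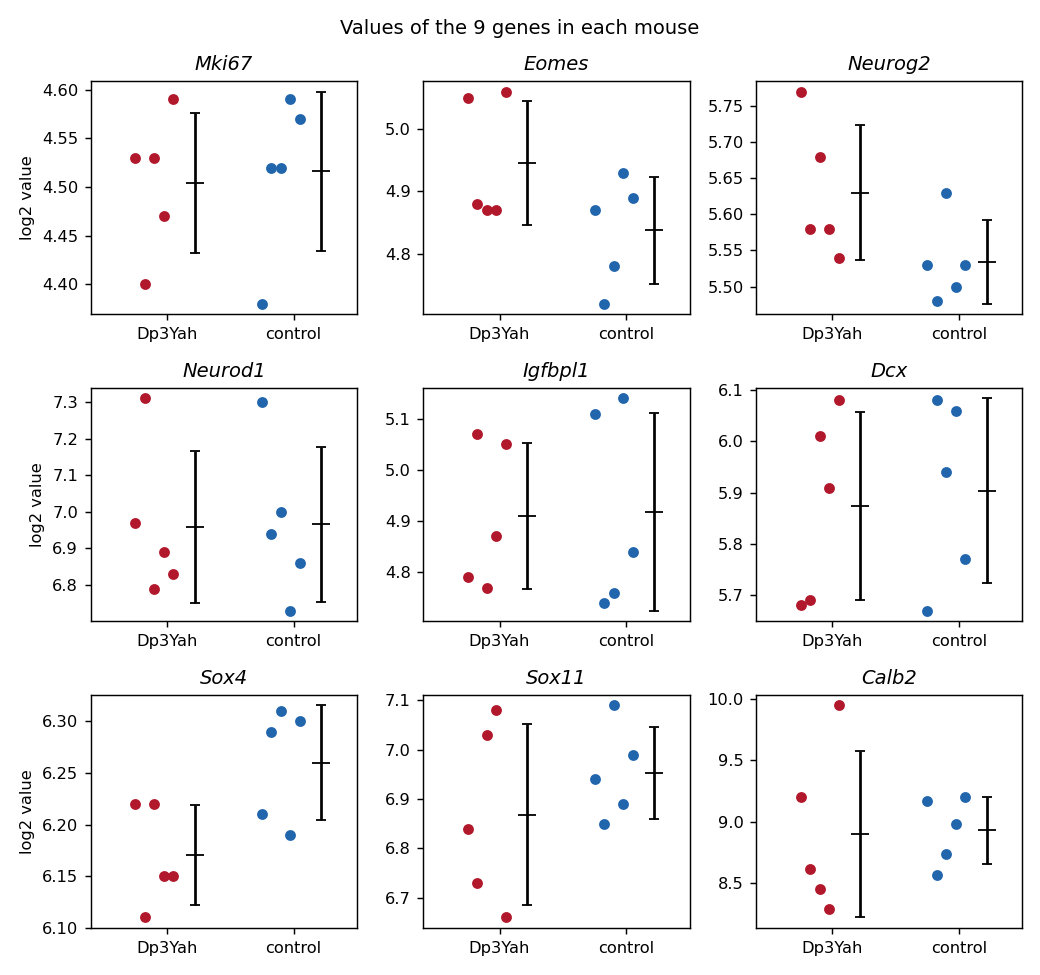
Log2 value of each of the 9 genes in each mouse (points) with the mean and SD (bars) of 5 Dp3Yah and 5 control mice. The groups overlap in every panel, each of which has its own axis that does not start at 0.

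Of 36 measured genes of neuroblasts and immature neurons, a list that includes 6 of the 9 genes, 13 were higher and 23 lower in Dp3Yah mice, with a median change of -0.021. None passed the adjusted threshold, and without adjustment 1 higher gene, Sema3c, and 1 lower gene, Sox4, had p under 0.05. Sema3c, which encodes a secreted guidance protein, averaged 7.10 ± 0.065 in Dp3Yah mice and 6.97 ± 0.085 in controls (SD, n = 5 each). The means of Dclk1, the gene of doublecortin-like kinase, were 10.99 ± 0.18 in Dp3Yah mice and 11.00 ± 0.10 in controls. Tubb3, the neuronal tubulin gene, averaged 9.61 ± 0.26 in Dp3Yah mice and 9.58 ± 0.12 in controls.

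The promoters of Neurod1, Sox4 and Sox11 are printed because, among the windows at hand, they hold the E-box letters CANNTG, to which basic helix-loop-helix factors such as those encoded by Neurog2 and Neurod1 bind. Each is the 250 bases before the RefSeq start (GRCm38.p6), on the minus strand, at chr2:79456637-79456886, chr13:28953700-28953949 and chr12:27342719-27342968. Capitals mark each CANNTG.
Neurod1: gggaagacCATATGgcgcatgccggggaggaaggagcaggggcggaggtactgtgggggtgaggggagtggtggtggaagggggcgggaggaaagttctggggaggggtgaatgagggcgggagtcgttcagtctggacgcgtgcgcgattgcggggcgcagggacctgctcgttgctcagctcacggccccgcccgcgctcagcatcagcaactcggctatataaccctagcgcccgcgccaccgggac
Sox4: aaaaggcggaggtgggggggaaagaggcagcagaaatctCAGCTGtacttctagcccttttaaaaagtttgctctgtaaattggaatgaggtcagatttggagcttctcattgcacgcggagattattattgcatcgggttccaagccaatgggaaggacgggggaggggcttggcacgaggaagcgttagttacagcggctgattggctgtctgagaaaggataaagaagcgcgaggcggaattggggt
Sox11: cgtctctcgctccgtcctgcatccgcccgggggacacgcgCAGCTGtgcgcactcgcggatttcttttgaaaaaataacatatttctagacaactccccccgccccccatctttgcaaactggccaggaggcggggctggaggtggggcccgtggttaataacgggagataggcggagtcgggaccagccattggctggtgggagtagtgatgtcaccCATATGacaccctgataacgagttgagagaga
The Sox4 window holds CAGCTG, the Neurod1 window CATATG, and the Sox11 window both. CANNTG, which reads as CANNTG on the other strand too, was in 66.2% of 32851 promoter windows of the same length, and CAGCTG was in 13%. The letters ACAAAG, searched on both strands as a motif of Sox factors, were in 16.5% of all windows and in 1 window of the 9 genes, of Dcx. RefSeq windows were matched for 7 of the 9 genes, which leaves Igfbpl1 and Calb2 named only. A match of letters is a description of the sequence and not a binding site.

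Calb2, which encodes the calcium-binding protein calretinin, is on chromosome 8 (110142526 to 110168212). Its log2 values were 9.20, 8.62, 8.45, 8.29 and 9.95 in Dp3Yah mice, against 9.17, 8.57, 8.74, 8.98 and 9.20 in control mice. The highest and the lowest of the 10 mice were both Dp3Yah. The means were 8.90 ± 0.68 in Dp3Yah mice and 8.93 ± 0.27 in controls (SD, n = 5 each), and the change of -0.03 had a 95% interval of 0.659-fold to 1.45-fold. Without Dp3Yah replicate 5, the mouse at 9.95, the change was -0.293, and with the dentate mean as a covariate it was 0.169. The within-group SD of 0.52 was larger than that of 99.8% of all genes. Neurod1, Dcx and Igfbpl1 followed, with SDs of 0.21, 0.18 and 0.17 that exceeded those of 96.5%, 94.2% and 92.4% of all genes, whose median SD was 0.09.

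The spread of Calb2 was set beside the mean of marker lists of other cells that a hippocampal dissection can hold, after both had been expressed as deviations from their group mean. Calb2 went with the mean of 10 ependymal markers over 10 mice. Here r was 0.898 (adjusted permutation p = 0.00344) and rho was 0.915 (adjusted permutation p = 0.0206). Permutation was exact and within groups, and p was adjusted over 99 gene-by-list relations. Of these 10 markers, 6 were below the median level of all genes, and their spread differed. Foxj1 ran from 5.85 to 5.88 in Dp3Yah mice and from 5.72 to 5.99 in controls. Cfap126 ran from 5.21 to 6.19 in Dp3Yah mice and from 5.35 to 6.01 in controls. Single ependymal markers were not tested. Calb2 also went with the mean of 8 mossy cell markers over the same mice. There r was 0.797 (adjusted permutation p = 0.00344) and rho was 0.855 (adjusted permutation p = 0.0378). With 16 markers of thalamus and habenula, Calb2 itself left out, r was 0.863 (adjusted permutation p = 0.0321) and rho was 0.806 (adjusted permutation p = 0.238). Without the 2 mice farthest from the median of the marker mean, r was 0.891, 0.832 and 0.873 for these lists. Within Dp3Yah mice the r values were 0.97, 0.96 and 0.97, and within controls they were 0.91, 0.89 and 0.87. With 12 oligodendrocyte precursor markers r was 0.717 (adjusted permutation p = 0.37), with 0.68 within Dp3Yah mice and 0.96 within controls. With 17 interneuron markers r was -0.07 (adjusted permutation p = 0.964), and with 15 dentate granule cell markers it was 0.31 (adjusted permutation p = 0.807).

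**Figure D3:**
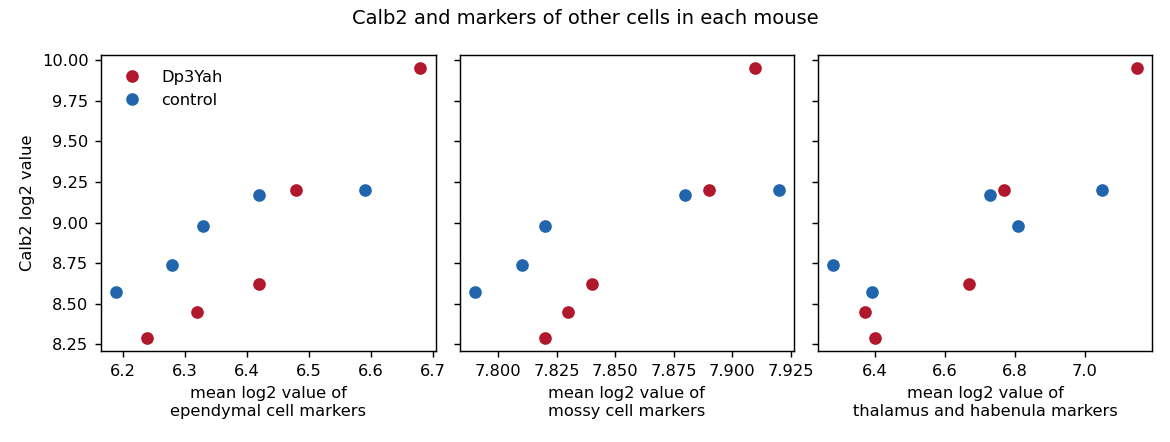
Calb2 log2 value of each mouse against the mean log2 value of ependymal, mossy cell and thalamus and habenula markers in the same mouse (5 Dp3Yah, 5 control). In each panel Calb2 tends to be higher where the marker mean is higher, and the Dp3Yah mouse at 9.95 lies at the upper right.

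The ependymal mean was 6.48, 6.42, 6.32, 6.24 and 6.68 in Dp3Yah mice and 6.42, 6.19, 6.28, 6.33 and 6.59 in controls. The thalamus and habenula mean was 6.77, 6.67, 6.37, 6.40 and 7.15 in Dp3Yah mice and 6.73, 6.39, 6.28, 6.81 and 7.05 in controls. Mossy cell markers varied much less, between 7.82 and 7.91 in Dp3Yah mice and between 7.79 and 7.92 in controls. Dp3Yah replicate 5, the mouse with most Calb2, was also the highest of the Dp3Yah mice for all 3 lists. Control replicate 5 was the highest of the controls for all 3. The list means rose in the same mice, so their relations to Calb2 are not separate from each other. With the thalamus and habenula mean as a covariate the change of Calb2 between the groups was -0.06, and the part of ependymal and mossy cells in it was not tested. Choroid plexus markers were left out of these correlations because the arrays fell into 2 clusters on them. Dp3Yah replicates 1, 2 and 5 and control replicates 1 and 5 formed the high cluster. The ependymal and mossy cell means split on the same mice. Ependymal means were 6.42 to 6.68 in the high cluster and 6.19 to 6.33 in the rest. Mossy cell means were 7.84 to 7.92 and 7.79 to 7.83, and Calb2 was 8.62 to 9.95 and 8.29 to 8.98. The part of this split in the r values was not tested.

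Genes that regulate neurogenesis from outside or inside the cell were listed next. Of 35 measured genes of neurogenesis signalling, 18 were higher and 17 lower in Dp3Yah mice, with a median change of 0.007 and none past the adjusted threshold. Vegfa, a growth factor gene, averaged 7.61 ± 0.11 in Dp3Yah mice and 7.82 ± 0.082 in controls (SD, n = 5 each), a difference of -0.22 with an adjusted p of 0.922 in limma. Smo, the transducer of Hedgehog signals, and Dll1, a Notch ligand, had changes of 0.13 and 0.10. Relatives of the 9 genes in the same protein families numbered 20, of which 8 were higher and 12 lower with a median change of -0.037. Sox12, the remaining SoxC gene, averaged 6.96 ± 0.13 in Dp3Yah mice and 7.02 ± 0.15 in controls, and Neurod2, a relative of Neurod1 found in mature neurons, had a change of -0.13.

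**Figure D4:**
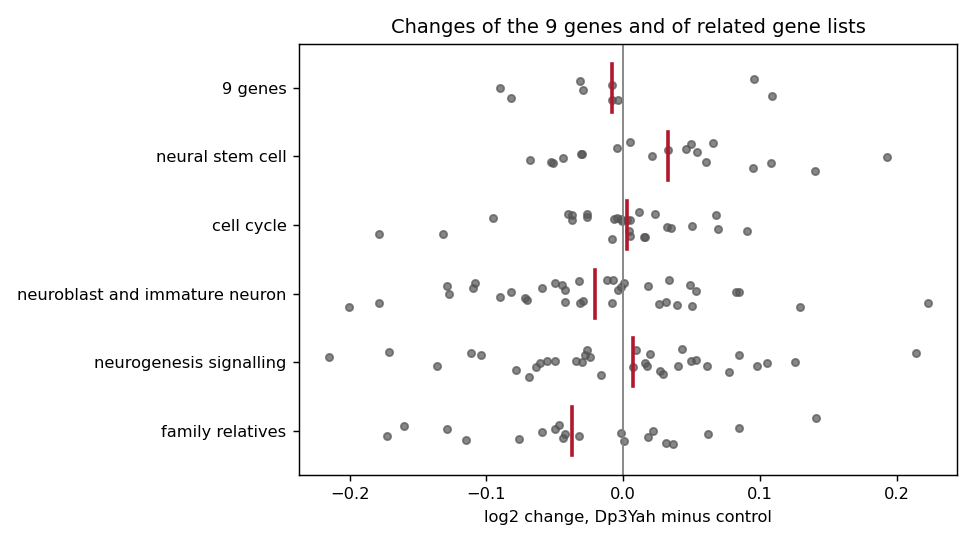
Change on the log2 scale, Dp3Yah minus control, of each measured gene (points) in the 9 genes and in 5 related lists, with the median as a red line. Medians lie between -0.037 and 0.033, and none of the genes shown passed an adjusted p of 0.05.

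Whether the 9 genes varied together between mice was examined pair by pair. Across the 36 pairs, correlations of the deviations from the group means over 10 mice were positive for 15 pairs, with a median r of -0.09. By exact permutation within groups, 3 pairs passed an adjusted p of 0.05 over the 36 for Pearson's r and 0 for Spearman's rho. The pairs were Igfbpl1 with Sox4 (r = -0.929, rho = -0.842), Mki67 with Neurod1 (r = -0.90, rho = -0.758) and Eomes with Calb2 (r = 0.849, rho = 0.915). Each had an adjusted permutation p of 0.0492 for r, and for rho the adjusted permutation p-values were 0.164, 0.291 and 0.11. Without the 2 mice farthest from the median of the gene named first, r was -0.877, -0.553 and 0.831, so that much of the Mki67 with Neurod1 relation rested on those mice. Within Dp3Yah mice r was -0.88, -0.80 and 0.91, and within controls it was -0.96, -0.98 and 0.84. Every pair holds a gene well below the median level of all genes, 6.38. Over the mice Igfbpl1 ran from 4.74 to 5.14, Mki67 from 4.38 to 4.59 and Eomes from 4.72 to 5.06. Whether these values are above the array background was not tested. Sox4 and Sox11, the SoxC genes, had r = 0.41, and Dcx had r = -0.05 with Sox11 and r = 0.62 with Mki67, none of which passed the adjusted permutation threshold. Eomes, like Calb2, went with the thalamus and habenula markers (r = 0.841, adjusted permutation p = 0.177), a value that did not pass over the 99 relations. Its r was 0.818 with oligodendrocyte precursor, 0.766 with ependymal and 0.738 with mossy cell markers. Their adjusted permutation p-values were 0.256, 0.256 and 0.353, so the relation was not particular to thalamus and habenula.

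**Figure D5:**
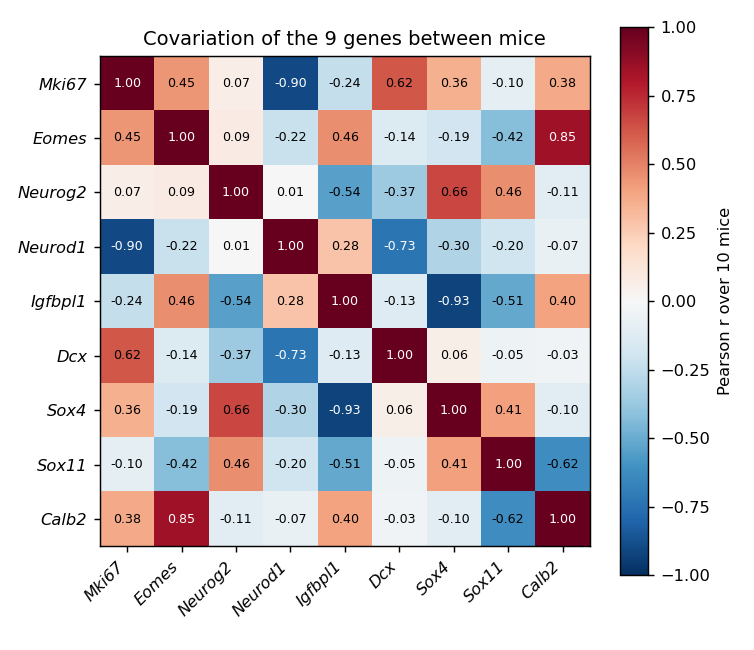
Pearson's r over 10 mice (5 Dp3Yah, 5 control) between the deviations of each pair of the 9 genes from their group means, from blue (negative) to red (positive). The 3 darkest pairs off the diagonal are Igfbpl1 with Sox4, Mki67 with Neurod1, and Eomes with Calb2.

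The genes whose deviations were most like those of Dcx over the 10 mice, among genes above the median level, were Celf3 (r = 0.924), Mapkapk5 (r = 0.911), Smyd2 (r = 0.909), Dhrs7 (r = 0.905) and Ap2s1 (r = 0.899). For Sox11 they were Desi2 (r = 0.919), Rnf6 (r = 0.915), Klf2 (r = 0.904), Dusp4 (r = 0.899) and Hif1an (r = 0.896). For Mki67 they were Rrnad1 (r = 0.955), Mrpl54 (r = 0.941), Flna (r = 0.937), Mcidas (r = 0.931) and Sdhaf4 (r = 0.924). For Calb2 they were Mettl26 (r = 0.955), Cacng4 (r = 0.952), Rer1 (r = 0.916), Heg1 (r = 0.912) and Trim27 (r = 0.907). These were the highest 5 of 9968 or 9969 correlations for each gene, and none was tested. Mki67 and Dcx themselves had means below the median level.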

How the data were processed

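Total RNA of the hippocampi of 10 mice was hybridised to 10 arrays. The log2 values deposited by the authors, 1 per probe set, had been made with RMA (background correction, normalisation between arrays and summary of probes). The submitters' processing notes name RMA, limma and mm10. No version of RMA or limma was found in the sources used here, nor whether these arrays were normalised with those of other lines.

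Of 35556 probe sets, 21789 were annotated to 1 gene, 1621 to several and 12146 were unnamed here. The genes numbered 19939, each read from its probe set with the highest mean, and 19856 matched RefSeq (GRCm38.p6). No value was filtered. Groups were compared with limma 3.58.1 in R 4.3.3 (lmFit and eBayes, no covariate, two-sided), which was tested on simulated data. The rank test was rewritten from its principle with a trim of 0.25. Correlations used SciPy 1.17.1 and 14400 within-group arrangements, for which 6.94e-05 is the smallest p. Those with marker lists were added after the array values were seen. The number of arrays limits the precision.

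The 9 genes, the 17 lists and the tests were chosen with earlier results of these data known. The text names the 9 genes, up to 3 genes per list by unadjusted p, the genes most alike 4 of the 9, and 3 genes of the duplication. Top2a, Sox2, Dclk1, Tubb3 and Sox12 were named for their roles, after their values were seen. Alternatives included other normalisations, gene filters, weights, covariates, and leaving out each mouse.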

Additional observations from a re-analysis of the deposited data

How the results depend on the processing

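None of the 9 genes was called in the alternative settings run for it, by adjusted p or, in the rank test, by that test's own threshold. The filter on the median level kept only Neurod1, Sox11 and Calb2. The number of genes called was 1 with every probe set tested singly, 6 with a trended and robust variance, 5 with array weights and 915 by the rank test, against 3 as reported, and it ran from 1 to 4 with 1 mouse left out (1 without Dp3Yah replicate 4 or without control replicate 3, 4 or 5). The same-numbered mice were not paired in the data (correlations of -0.364 to 0.315 between their deviations, 2 of 5 over 0.1), and with the replicate number as a block 3 genes were called. The number of the 9 genes with an unadjusted p under 0.05, 1 as reported, was 0 with the replicate block, with a trended and robust variance, with choroid plexus markers as a covariate and with only genes above the median level, and it ran from 0 to 2 with 1 mouse left out (0 when replicate 2 or 4 of the Dp3Yah mice or replicate 2 or 5 of the controls was dropped, and 2 when it was control replicate 4). With a second quantile normalisation, with median centring, or with dentate or thalamus markers as a covariate that 1 gene was Eomes and not Sox4, and without Dp3Yah replicate 5 or control replicate 3 it was Neurog2.

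Sox4 and Sox11 stayed lower, and Eomes and Neurog2 higher, in Dp3Yah mice under all alternatives run for them, with 1 mouse left out between -0.108 and -0.0761 for Sox4, -0.133 and -0.0305 for Sox11, 0.0799 and 0.132 for Eomes and 0.0613 (without Dp3Yah replicate 1) and 0.12 for Neurog2. The near-zero changes of other genes turned sign. Under the second quantile normalisation they were 0.00298 for Mki67, 0.000932 for Neurod1 and 0.00953 for Igfbpl1, and under median centring 0.00239, 0.00301 and 0.00715. With dentate markers as a covariate Neurod1, Igfbpl1 and Calb2 had 0.039, 0.0541 and 0.169, while Dcx and Eomes kept their sign at -0.166 and 0.176. With 1 mouse left out the changes ran from -0.0424 to 0.0167 for Mki67, -0.0948 to 0.0754 for Neurod1, -0.0483 to 0.0516 for Igfbpl1, -0.0879 to 0.018 for Dcx and -0.293 to 0.123 for Calb2. The cause was not tested. Without the 2 farthest mice the pair correlations of -0.877, -0.553 and 0.831 no longer passed, with fewer arrangements of 8 mice to set them against.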
